A study of Mus musculus with 12 samples.

Results

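The small leucine-rich proteoglycans are secreted matrix proteins of connective tissue, and 8 of their genes were followed here out of the 19938 genes named on the arrays: Dcn, Bgn, Aspn, Fmod, Lum, Prelp, Ogn and Podn. They were chosen by name, each through the probe set annotated to it, and each had 1 such probe set. All 8 passed a filter on dim genes that kept 13044 genes, those above the median of an array on at least 1 of the 12 arrays. RNA came from mouse cells of 3 genotypes of Mbd3, a subunit of the NuRD chromatin complex. The 4 pluripotent arrays were MBD3flox/- induced pluripotent stem cells (iPSC), MBD3-/- embryonic stem cells (ESC), MBD3+/+ iPSC and MBD3+/+ ESC of the line V6.5. The 5 DOX arrays were fibroblasts given doxycycline, with MBD3flox/- cells at days 4 and 8 and MBD3+/+ cells at days 4, 8 and 11. The 3 MEF arrays were untreated embryonic fibroblasts of MBD3flox/-, MBD3-/- and MBD3+/+ genotype. The genotypes are shortened to flox/-, -/- and WT.

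The flox/- cells and the WT cells other than V6.5 carried a transgene that doxycycline switches on to express Oct4, Sox2, Klf4 and Myc, and it was present before induction too. The labels of the -/- MEF, the -/- ESC and V6.5 name no transgene. Whether a pluripotent line is a single clone is not given in the sources used here. All cultures, the MEF included, are labelled as grown in a 2i/LIF stem cell medium on a layer of irradiated DR4 feeder MEF. Feeder fibroblasts and cells that had not converted can therefore both give fibroblast RNA in any culture. In such bulk RNA, fewer cells of a type and less RNA per cell cannot be told apart. Each genotype and stage had 1 array, so arrays of 1 state stood as replicates, p-values measure only the spread between these arrays, and shared cultures are not marked in the labels.

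Small leucine-rich proteoglycans have a curved protein core of leucine-rich repeats that lies on collagen fibrils, and most carry chondroitin, dermatan or keratan sulfate chains. They set how thick and how evenly spaced collagen fibrils grow, and several bind growth factors of the TGF-beta family. Fibroblasts are their main source in loose connective tissue.

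Some properties of the arrays bear on every value below. The arrays of WT day 8 and of WT ESC had already been deposited with another study and were reused here. The WT day 8 array is named as day 8 in its title and stage but as 4 days in its source, and values without both arrays are given below beside the tests of the 8 genes, the spans, the profiles and the gene lists. For the spans, profiles and lists this was chosen after seeing the data. Mbd3 itself read 8.73 to 9.11 on the 4 flox/- arrays, 6.73 and 8.15 on the 2 -/- arrays and 8.995 to 9.67 on the 6 WT arrays (log2 signal). Where its probe set lies relative to the deleted part is not given in the sources used here. Fibroblast markers summed to a linear signal of 7398 to 17070 on the pluripotent arrays and 6185 to 42572 on the DOX arrays, against 65071 to 73458 on the MEF arrays, with 19 of 20 markers measured. One of them, Vim, read 11.69 to 13.43 over the 12 arrays and weighs heavily in the low sums. Pluripotency markers summed to 45752 to 50910 on the pluripotent arrays and 5049 to 51322 on the DOX arrays, against 786 to 911 on the MEF arrays. Smooth muscle markers summed to 1539 to 15483 on the pluripotent and 1199 to 10467 on the DOX arrays, against 24978 to 30323 on the MEF arrays, and macrophage markers to 3223 to 6164 and 2069 to 10449, against 2436 to 20339. Of the 12 macrophage markers, 2 to 6 were above the array median on the pluripotent arrays, against 10 to 12 on the MEF arrays. Their pluripotent sums rest largely on Laptm5 and Cd68. Laptm5 read 10.84 to 12.04 on the pluripotent arrays and 7.87 to 10.85 on the MEF arrays. The part of these other cell types in the results was not tested. After quantile normalization every array had a median of 6.31 and a lower quartile of 4.68 log2 units, and a fold against a reading near the lower quartile is limited by the dim end of the array.

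Decorin (Dcn) and biglycan (Bgn) carry chondroitin or dermatan sulfate chains, bind collagen and sequester TGF-beta. On the flox/- arrays Dcn read 11.99 in MEF, 9.96 on day 4, 6.004 on day 8 and 5.03 in iPSC (log2 signal). On the WT arrays it read 11.53 in MEF, then 11.19, 12.48 and 11.62 on days 4, 8 and 11, 11.05 in iPSC and 6.33 in ESC. It read 9.33 in -/- ESC, against 11.93 in -/- MEF. Dcn was thus lower at each successive flox/- stage, while every WT array except ESC stayed within 1 log2 unit of WT MEF. Bgn read 13.13 in MEF, 11.04 on day 4, 7.83 on day 8 and 5.98 in iPSC of the flox/- genotype. In WT it read 12.96 in MEF, 12.39, 10.29 and 11.50 on days 4, 8 and 11, 11.04 in iPSC and 11.24 in ESC, and it read 9.54 in -/- ESC against 13.03 in -/- MEF. The 3 MEF readings of Bgn lie within 0.18 log2 units of each other, and every DOX and pluripotent reading is below them. Bgn was still bright on both WT pluripotent arrays and dimmer than the array median on the flox/- iPSC array.

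Asporin (Aspn) is a relative of decorin that lacks the glycosaminoglycan attachment site, and osteoglycin (Ogn, also called mimecan) is a keratan sulfate carrier of cornea, bone and vessel wall. In flox/- cells Aspn read 12.15 in MEF, 8.47 on day 4, 5.52 on day 8 and 5.33 in iPSC. In WT cells it read 12.17 in MEF, 11.08, 5.20 and 9.48 on days 4, 8 and 11, 8.16 in iPSC and 7.72 in ESC. In -/- cells Aspn read 6.35 in ESC, against 11.04 in MEF. The WT day 8 array was the lowest of all 12 for Aspn, although the WT arrays before and after it were bright. Ogn read 11.58 in MEF, 8.65 on day 4, 5.43 on day 8 and 5.21 in iPSC of flox/- cells, and 12.04, 11.43, 5.23, 10.18, 7.86 and 8.16 in WT cells as MEF, on days 4, 8 and 11, as iPSC and as ESC. In -/- cells it read 6.82 in ESC, against 10.97 in MEF. The profile of Ogn had the same dip at WT day 8 as that of Aspn.

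Fibromodulin (Fmod) and lumican (Lum) carry keratan sulfate and share a binding site on collagen fibrils, and Prelp is a heparin-binding relative that links basement membrane to collagen. Fmod read 10.97 in MEF, 7.03 on day 4, 4.88 on day 8 and 5.34 in iPSC of flox/- cells. In WT it read 11.32 in MEF, 10.44, 8.46 and 8.38 on days 4, 8 and 11, 5.61 in iPSC and 6.19 in ESC, and it read 5.36 in -/- ESC against 10.38 in -/- MEF. All 4 pluripotent readings of Fmod were below the median of their array, the only member for which this held. Lum read 10.03 in MEF, 7.43 on day 4, 4.59 on day 8 and 4.39 in iPSC of flox/- cells. In WT it read 9.62 in MEF, 9.53, 4.798 and 9.90 on days 4, 8 and 11, 8.91 in iPSC and 4.36 in ESC, and it read 6.18 in -/- ESC against 9.69 in -/- MEF. Lum was high in WT iPSC and below the lower quartile in flox/- day 8, flox/- iPSC and WT ESC. Prelp read 11.72 in MEF, 8.75 on day 4, 5.65 on day 8 and 5.996 in iPSC of flox/- cells. In WT it read 10.29 in MEF, 10.91, 12.01 and 11.34 on days 4, 8 and 11, 8.46 in iPSC and 9.19 in ESC, and it read 7.59 in -/- ESC against 11.49 in -/- MEF. Every WT DOX array was above WT MEF for Prelp, and both flox/- DOX arrays were below flox/- MEF.

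Podocan (Podn) is a collagen-binding member of a separate class, first described in kidney glomeruli. In flox/- cells Podn read 10.58 in MEF, 7.42 on day 4, 6.42 on day 8 and 6.43 in iPSC. In WT cells it read 9.59 in MEF, 7.95, 6.37 and 7.16 on days 4, 8 and 11, 6.46 in iPSC and 6.84 in ESC. In -/- cells it read 6.65 in ESC, against 9.80 in MEF. Its readings on the pluripotent arrays spanned 0.41 log2 units, and they lay just above the array median whatever the genotype.

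**Figure D1:**
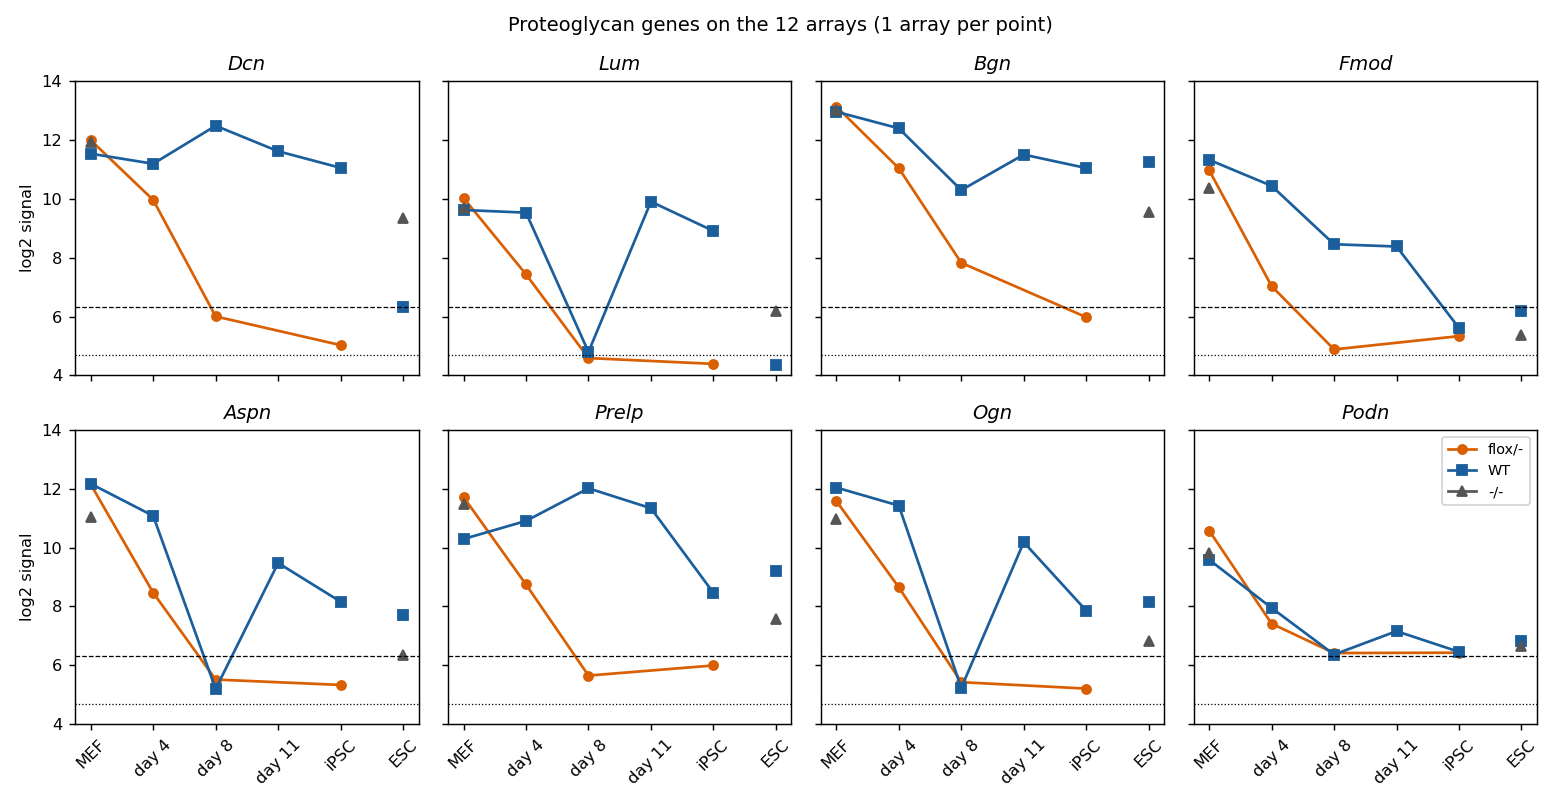
Log2 signal of the 8 proteoglycan genes (y axis) by stage (x axis), 1 array per point, for flox/- (orange circles), WT (blue squares) and -/- (grey triangles); the dashed line is the median of all arrays (6.31) and the dotted line their lower quartile (4.68). Lines join MEF, DOX days and iPSC of 1 genotype, and the WT line of Lum, Aspn and Ogn dips at day 8 and is high again at day 11.

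The order of loss was read from each DOX array minus the MEF array of its own genotype, which has no test because each difference rests on 1 array a side. In flox/- cells all 8 genes were at least 2-fold lower by day 4, when 15.1% of all genes were at least 2-fold lower. The differences ran from -2.03 for Dcn to -3.94 for Fmod (log2). By flox/- day 8 all 8 were at least 2-fold lower again, with 20.9% of all genes, and from 17.9-fold for Podn to 99.1-fold for Aspn. Between flox/- days 4 and 8 a further 2-fold or larger difference was seen for 7 of 8 genes, against 11.8% of all genes, and Podn differed by -0.999. Between flox/- day 8 and flox/- iPSC only Bgn was 2-fold lower, by 3.60-fold, against 0.866% of all genes.

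WT cells differed less on day 4. Podn and Aspn were the 2 genes at least 2-fold lower in WT day 4 than in WT MEF, by 3.11-fold and 2.13-fold, and 6.94% of all genes were that much lower. Fmod stood at 1.85-fold lower there, and Prelp at 1.53-fold higher. On WT day 8, 6 genes were lower, with 12.7% of all genes: Aspn by 125-fold, Ogn by 112-fold, Lum by 28.3-fold, Podn by 9.32-fold, Fmod by 7.30-fold and Bgn by 6.33-fold. Prelp was 3.30-fold higher and Dcn 1.93-fold higher on the same array, where 12.4% of all genes were at least 2-fold higher. On WT day 11, 5 genes were lower, with 13% of all genes: Fmod by 7.70-fold, Aspn by 6.46-fold, Podn by 5.38-fold, Ogn by 3.62-fold and Bgn by 2.74-fold. Prelp was 2.06-fold higher on day 11, where 11.6% of all genes were that much higher, and Dcn and Lum were within 1.3-fold of WT MEF. Taken without the reused WT day 8 array, the WT course holds at least 2-fold lower Podn and Aspn on days 4 and 11, lower Fmod, Ogn and Bgn on day 11, and no 2-fold loss of Dcn, Lum or Prelp.

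In flox/- cells the fibroblast markers were lower along with the 8 genes, and in WT cells only with some of them. On WT day 8 Dcn and Prelp were higher than in MEF. On WT day 11 Prelp was higher, and Dcn and Lum were not lower. The markers were at least 2-fold lower than in MEF of the same genotype for 18 of 19 on flox/- day 4 and 19 of 19 on flox/- day 8. In WT cells they were that much lower for 5, 14 and 15 of 19 on days 4, 8 and 11. Their summed linear signal was 16084 and 6185 on flox/- days 4 and 8, and 42572, 18175 and 21678 on WT days 4, 8 and 11. On the WT day 8 array the markers disagreed among themselves as the proteoglycans did: Postn read 5.73 against 12.56 in WT MEF, and Prrx1 read 11.77 against 12.08, a pair picked after their values were seen. Epithelial markers summed to 29703 on WT day 8, the highest of the 12 arrays, and to 907 in WT MEF. What part of the differences between the arrays comes from feeder or unconverted fibroblasts was not tested.

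**Figure D2:**
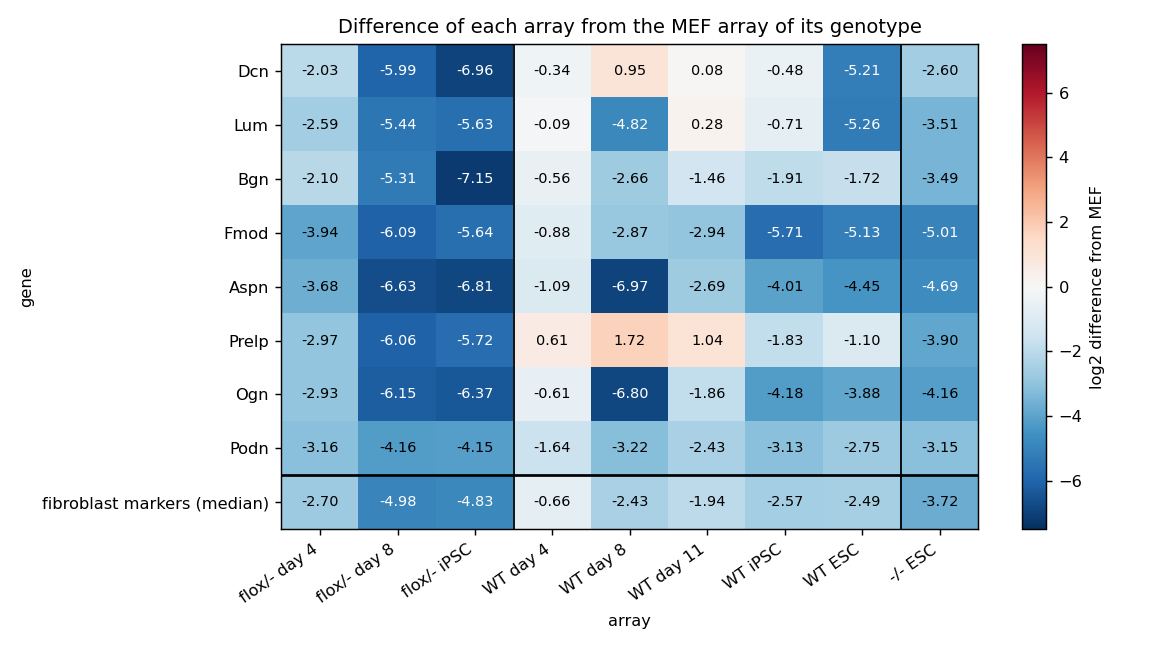
Log2 difference of each array (columns, 1 array each) from the MEF array of its own genotype, for the 8 genes (rows) and, in the bottom row, the median of 19 fibroblast markers; blue is lower and red is higher than MEF. Both flox/- DOX columns are blue for all 8 genes, while Prelp is red on the 3 WT DOX arrays and Dcn is red on WT day 8.

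Set against the full distance from MEF to iPSC of the same genotype, flox/- day 4 had covered 29.2% (Dcn) to 76.2% (Podn) of the log2 distance, with a median of 49.0%. Fmod had covered 69.9%, Aspn 54.1% and Prelp 51.9%, and Lum and Ogn 46.0% each. By flox/- day 8 the share was 74.2% for Bgn, 86.0% for Dcn and 96.5% or more for the other 6 genes. In WT cells this share has meaning only for the 6 genes that were at least 2-fold lower in WT iPSC than in WT MEF, which leaves out Dcn and Lum. Podn alone had covered more than 50% on WT day 4 (52.3%), and Fmod had covered 50.2% on day 8 and 51.5% on day 11. On WT day 8, Podn, Bgn, Ogn and Aspn lay beyond WT iPSC, at 103% to 174%. Prelp lay on the far side of MEF on all 3 WT DOX arrays, at -33.6%, -94.3% and -57.2% on days 4, 8 and 11.

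The test of the 5 DOX arrays against the 3 MEF arrays called 1 of the 8 genes, Podn, while 7.67% of the 13044 genes tested were called lower and 5.88% higher. Podn averaged 7.06 ± 0.68 log2 units on the DOX arrays (SD, n = 5) and 9.99 ± 0.52 on the MEF arrays (SD, n = 3). It fell by 2.93 ± 0.41 (SE), 7.61-fold, with an adjusted p of 0.00969 (limma), and by 2.75 without the reused day 8 array (limma, adjusted p = 0.0105). Without the flox/- MEF array its adjusted p was 0.0533. The other 7 differences were all negative and none passed the test: Aspn -3.84 ± 1.34, Ogn -3.35 ± 1.45, Fmod -3.05 ± 1.08, Lum -2.53 ± 1.31, Bgn -2.43 ± 0.90, Dcn -1.57 ± 1.32 and Prelp -1.43 ± 1.37 (log2 ± SE), with adjusted p from 0.0860 to 0.480 (limma). Without the reused array these 7 ran from -1.91 for Lum to -3.21 for Fmod, and none passed (limma, adjusted p from 0.0869 to 0.290). Without the WT day 4 array, Fmod and Aspn passed too, at adjusted p of 0.0306 and 0.0327 (limma). The median over the 8 genes was -2.73, beside 0.06 over all genes tested. DOX and MEF readings did not overlap for Bgn and Podn, as for 15.2% of all genes with lower DOX readings.

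Against the 4 pluripotent arrays, none of the 8 genes passed the test on the 5 DOX arrays, in which limma called 1 of 13044 genes (0.00767%). All 8 differences were positive, from 0.47 ± 0.32 for Podn to 2.31 ± 1.55 for Dcn (log2 ± SE). At an unadjusted p under 0.05 stood Fmod, with 2.21 ± 0.93, and 2052 of all genes. Fmod passed without the flox/- day 8 array (limma, adjusted p = 0.0289). Without both reused arrays the 8 differences ran from 0.72 for Podn to 2.29 for Ogn, Dcn was at 1.22 and Fmod at 2.25, and none passed (limma, adjusted p from 0.465 to 0.752). This comparison shares its DOX arrays with the one against MEF.

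All 8 genes fell in the 4 pluripotent arrays relative to the 3 MEF arrays, in a comparison where 29.9% of all genes tested were called lower and 30.1% higher. The median over the 8 genes was -3.85, beside 0.03 over all genes tested. Fmod averaged 5.63 ± 0.40 log2 units in pluripotent cells (SD, n = 4) and 10.89 ± 0.48 in MEF (SD, n = 3), a fall of 38.5-fold (log2 difference -5.27 ± 0.28 SE, limma, adjusted p = 1.798e-05). Aspn averaged 6.89 ± 1.29 in pluripotent cells and 11.79 ± 0.65 in MEF, 29.7-fold lower (limma, adjusted p = 0.000712). Ogn averaged 7.01 ± 1.33 in pluripotent cells and 11.53 ± 0.53 in MEF, with a log2 difference of -4.52 ± 0.69, or 22.9-fold lower (limma, adjusted p = 0.00104), and 15.1-fold lower without flox/- iPSC. Podn averaged 6.59 ± 0.19 in pluripotent cells and 9.99 ± 0.52 in MEF, 10.5-fold lower (limma, adjusted p = 4.541e-05). The small SE of Fmod and Podn, 0.28 and 0.24, set them apart from the remaining genes. Their pluripotent readings lay below and just above the array median, and whether a floor of the signal narrows their spread was not tested.

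The other 4 genes passed with a wide spread among the pluripotent arrays. Prelp averaged 7.81 ± 1.38 in pluripotent cells and 11.16 ± 0.77 in MEF, 10.2-fold lower (limma, adjusted p = 0.00589). It was 6.73-fold lower without flox/- iPSC, and it was not called with one fit of all 3 states (limma, adjusted p = 0.0553). Lum averaged 5.96 ± 2.14 in pluripotent cells and 9.78 ± 0.22 in MEF, 14.1-fold lower (limma, adjusted p = 0.0153). Bgn averaged 9.45 ± 2.44 in pluripotent cells and 13.04 ± 0.09 in MEF, 12.03-fold lower (limma, adjusted p = 0.0323). Dcn averaged 7.94 ± 2.75 in pluripotent cells and 11.82 ± 0.25 in MEF, 14.8-fold lower (limma, adjusted p = 0.0379). The folds of these last 3 moved with single arrays. Dcn was 30.3-fold lower without WT iPSC and 7.54-fold lower without flox/- iPSC, Lum was 27.9-fold lower without WT iPSC, and Bgn was 5.39-fold lower without flox/- iPSC and 18.2-fold lower without WT ESC. The calls of Dcn and Bgn depended on single arrays and on the fit. Dcn was no longer called without any 1 of the 3 MEF arrays (adjusted p from 0.0768 to 0.0978), without WT ESC (adjusted p = 0.0862) or without flox/- iPSC (limma, adjusted p = 0.0619), nor with no filter on dim genes (0.0614), one fit of all 3 states (0.0631) or genotype as a term (0.0524). Bgn was no longer called without any 1 of the 3 MEF arrays (adjusted p from 0.0731 to 0.0849) or without -/- ESC (limma, adjusted p = 0.0592), nor with no filter on dim genes (0.0529). Lum was lost without flox/- MEF (limma, adjusted p = 0.0512). Without the reused WT ESC array, 7 of the 8 genes were called, all but Dcn. Pluripotent and MEF readings did not overlap for any of the 8 genes, as for 30.8% of all genes with lower pluripotent readings.

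**Figure D3:**
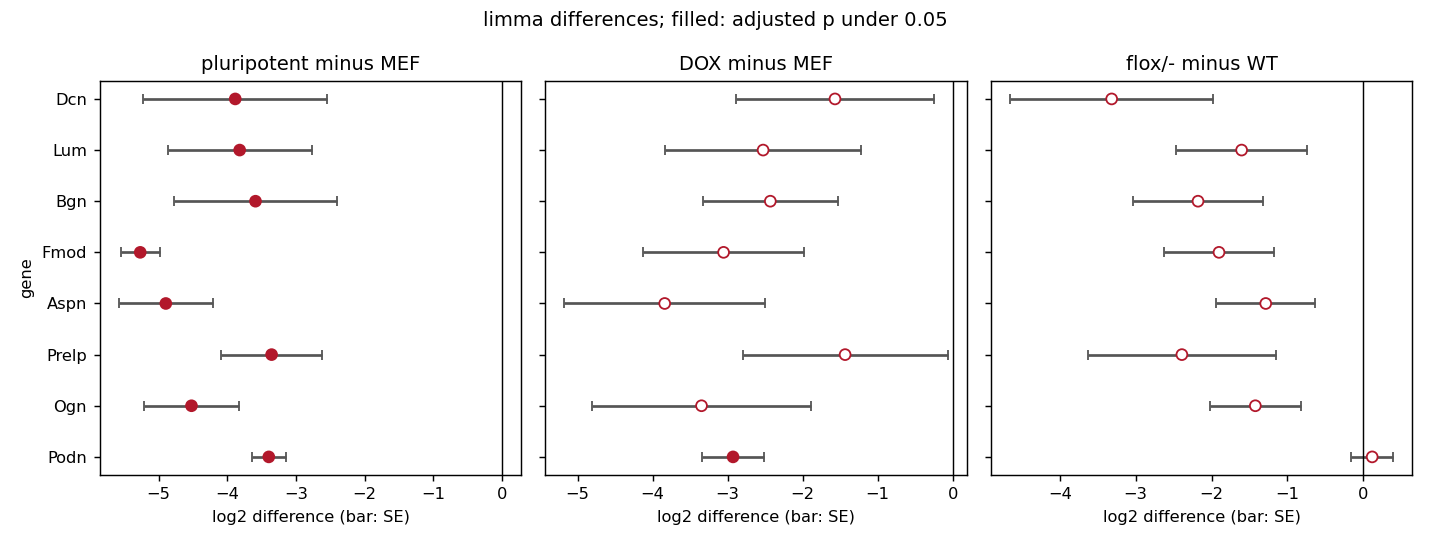
Log2 differences (x axis, bars are SE) of the 8 genes (y axis) in limma fits of pluripotent minus MEF, DOX minus MEF and flox/- minus WT; filled points passed an adjusted p of 0.05. All 8 points are filled in the first panel, Podn alone in the second and none in the third, where the bars of Dcn and Prelp are the longest.

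Which transcripts stayed in the pluripotent arrays was read as a percentage of the mean linear MEF signal. Dcn kept 0.895% in flox/- iPSC, 17.7% in -/- ESC, 58.2% in WT iPSC and 2.20% in WT ESC. Lum kept 2.38%, 8.17%, 54.3% and 2.32% in the same 4 arrays. The pair was thus high in WT iPSC only, and the -/- ESC array came next. Bgn kept 0.748% in flox/- iPSC, 8.85% in -/- ESC, 25.03% in WT iPSC and 28.7% in WT ESC. Prelp kept 2.56% in flox/- iPSC, 7.71% in -/- ESC, 14.1% in WT iPSC and 23.5% in WT ESC. For Bgn and Prelp both WT arrays were above both others, as they were for Aspn, Ogn and, by less, Fmod. Against WT MEF alone, which was the dimmest MEF array for Prelp, Prelp kept 28.2% in WT iPSC and 46.7% in WT ESC. Ogn kept 1.20% to 9.24% and Aspn 1.08% to 7.64%, again lowest in flox/- iPSC. Fmod kept 2.05% to 3.72% and Podn 8.10% to 10.8%, the narrowest ranges of the 8. All 4 readings of Fmod lay below the array median and those of Podn just above it. Whether these are floors of the probe sets, rather than transcript that stayed, was not tested.

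Over the 8 genes the median kept was 1.62% in flox/- iPSC, 7.94% in -/- ESC, 11.2% in WT iPSC and 7.43% in WT ESC. Against the MEF array of the same genotype the medians were 1.55%, 7.74%, 19.0% and 5.69% in the same order of arrays. The fibroblast markers kept medians of 4.21%, 5.86%, 13.5% and 15.3% in the same arrays, with summed signals of 7644, 7398, 15089 and 17070. Vim weighs heavily in these sums and kept 31.0% to 69.9% over these arrays. Of the 8 genes, 1 was above the array median in flox/- iPSC (Podn), 6 in -/- ESC, 7 in WT iPSC and 6 in WT ESC. The share of all kept genes above that median is not given, so these counts have no background to be read against. Dcn and Lum in WT iPSC were above the most strongly kept fibroblast marker on that array, Vim, which kept 51.1%. The next marker there, Zeb1, kept 40.3%. In WT ESC Dcn and Lum were below the least kept marker, at 3.45%. The part of feeder RNA in these remaining signals was not tested.

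**Figure D4:**
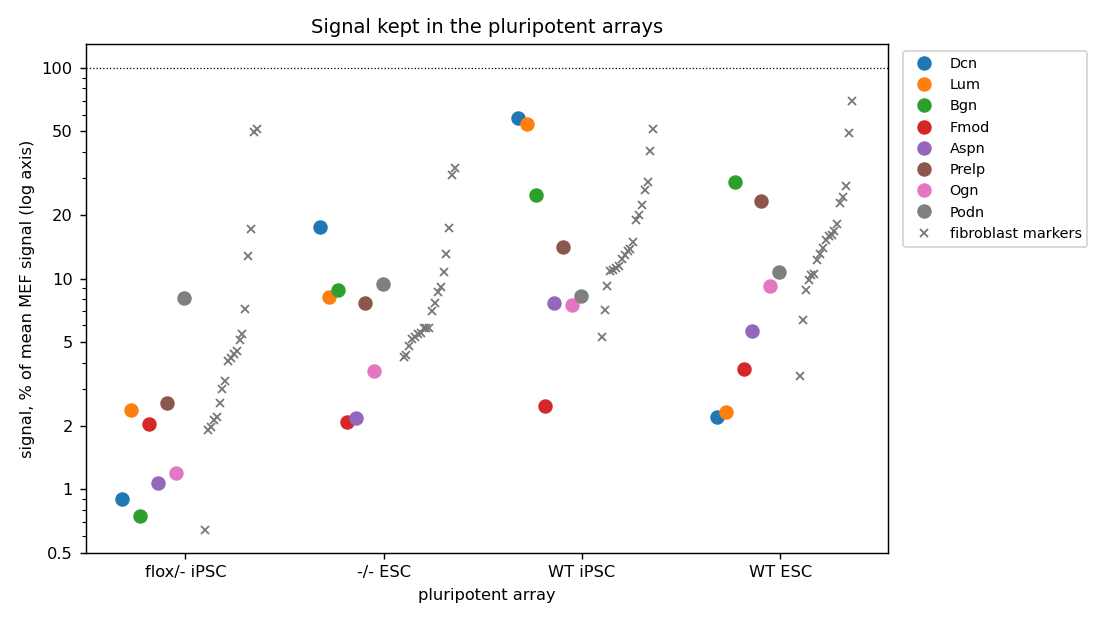
Linear signal of each pluripotent array (x axis) as a percentage of the mean of the 3 MEF arrays (y axis, log scale; dotted line 100%), with the 8 genes as dots and the 19 fibroblast markers as crosses in rising order. Dcn and Lum are the highest dots in WT iPSC at 58.2% and 54.3% and the lowest in WT ESC at 2.20% and 2.32%.

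Over the pluripotent arrays 6 of 8 spanned at least 2 log2 units, the exceptions being Fmod and Podn, and 3.58% of all genes spanned as much. Over the DOX arrays 7 of 8 did, with 19.8% of all genes, the exception being Podn. Over the MEF arrays none of the 8 did, with 1.99% of all genes. Their median span was 3.07, 5.72 and 0.97 log2 units over the pluripotent, DOX and MEF arrays, beside 0.48, 0.98 and 0.31 over all genes. Without the 2 reused arrays the same 6 and 7 genes spanned at least 2 log2 units over the pluripotent and DOX arrays, with 2.11% and 12.6% of all genes, and the median spans of the 8 were 2.74 and 5.56.

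Between genotypes no gene passed the test. In flox/- minus WT over 4 shared stages (8 arrays, stage as block), limma called 0 of 13044 genes (0%), with 852 at an unadjusted p under 0.05, among them Fmod. Of the 8 genes 7 had a negative difference, from -1.28 ± 0.66 for Aspn to -3.32 ± 1.34 for Dcn (log2 ± SE, limma, adjusted p = 0.693 for each of the 7), and Podn was at 0.12 ± 0.28. Without the day 8 pair, which holds the reused array, Dcn stood at -2.26 and Prelp at -1.07, against -2.39 ± 1.24 for Prelp with it. Stage by stage, the flox/- array was at least 2-fold lower than the WT array for 0 of 8 genes in MEF, 7 on day 4, 4 on day 8 and 6 in iPSC. The same held for 1.79%, 8.04%, 18.7% and 3.2% of all genes. Prelp was 2.69-fold higher in flox/- MEF than in WT MEF, where 2.33% of all genes were at least 2-fold higher. The day 8 pair splits the genes most: Dcn and Prelp were 89.0-fold and 82.2-fold lower in flox/- cells, and Lum, Aspn, Ogn and Podn were within 1.3-fold. The arrays of this pair also differed in pluripotency markers, which summed to 51322 on flox/- day 8 and 7969 on WT day 8. On day 4 these markers summed to 5049 in flox/- and 5335 in WT cells. In the day 8 pair genotype and cell state cannot be told apart. In iPSC Dcn was 65.0-fold, Bgn 33.5-fold and Lum 22.9-fold lower in flox/- cells, and Fmod and Podn were within 1.3-fold. The fibroblast markers had a median of -1.32 in the same fit, and 12 of 19 were at least 2-fold lower in flox/- iPSC than in WT iPSC.

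For -/- minus WT over the 7 arrays without DOX, limma called 0 of 13044 genes (0%), with 1243 at an unadjusted p under 0.05, among them Fmod at -0.73 ± 0.24 and Aspn at -1.51 ± 0.59 (log2 ± SE). Their adjusted p were 0.518 and 0.521 (limma). Without the reused WT ESC array they stood at -0.596 and -1.47, Dcn at -0.66 and Prelp at 0.16 (log2). Dcn and Lum were 8.03-fold and 3.52-fold higher in -/- ESC than in WT ESC, where 3.88% of all genes were at least 2-fold higher. Bgn, Prelp, Aspn and Ogn were 2.54-fold to 3.24-fold lower in the same pair, where 6.06% of all genes were that much lower. In MEF, Aspn and Ogn were 2.19-fold and 2.09-fold lower and Prelp 2.29-fold higher in -/- than in WT, with 3.96% of all genes at least 2-fold lower and 3.06% higher.

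The 8 genes lie on 5 chromosomes, and 6 of them are in 3 clusters with other genes of the family (coordinates of GRCm38.p6). Aspn (chr13:49544443-49567565) and Ogn (chr13:49608015-49624501) are 40.4 kb apart with Omd between them. Dcn (chr10:97479500-97518163) and Lum (chr10:97565501-97572703) are 47.3 kb apart, followed by Kera and Epyc. Prelp (chr1:133910304-133930102) and Fmod (chr1:134037254-134048280) are 107 kb apart, with Optc beside Prelp. Bgn (chrX:73483601-73495936) and Podn (chr4:108014793-108031954) have no such neighbour. The likeness of 2 profiles was measured as the root mean square (RMS) difference over the 12 arrays after each was centred on its own mean. Aspn and Ogn differed by 0.35 log2 units, the smallest of the 28 pairs, and each was the nearest of 13043 genes to the other. Prelp and Fmod differed by 1.30 and Dcn and Lum by 1.69, beside a median of 1.43 over the 28 pairs. Without the 2 reused arrays Aspn and Ogn differed by 0.36 and were again each other's nearest gene, Prelp and Fmod differed by 1.15, Dcn and Lum by 0.64, and the median was 0.97. The neighbours Dcn and Lum came apart on WT day 8, where Dcn had its highest reading and Lum was near the lower quartile.

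The promoters of Aspn and Ogn are shown because this neighbouring pair had the closest profiles, and those of Fmod and Podn because they kept the narrowest range in pluripotent cells. Each window holds 250 bases before and 50 bases after the RefSeq start (GRCm38.p6), and 6 of the 8 genes had a window in the table. The motifs below were searched on both strands and at any place in the window. TATAAA, the sequence of the TATA box, was in 13.6% of all 32851 promoters. TGANTCA, bound by AP-1, was in 7.81%, and GGAATG, bound by TEAD factors, in 14.7%. Whether a match works as a TATA box or is bound was not tested. Capitals mark the matches. The windows are chr13:49544193-49544492 (+) for Aspn, chr13:49607765-49608064 (+) for Ogn, chr1:134037004-134037303 (+) for Fmod and chr4:108031905-108032204 (-) for Podn.
Aspn: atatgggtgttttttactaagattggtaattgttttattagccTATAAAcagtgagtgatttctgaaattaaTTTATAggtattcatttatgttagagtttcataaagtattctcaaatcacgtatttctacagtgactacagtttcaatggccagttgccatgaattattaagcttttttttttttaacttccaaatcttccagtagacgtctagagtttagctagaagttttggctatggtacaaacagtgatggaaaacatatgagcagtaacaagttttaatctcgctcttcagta
Ogn: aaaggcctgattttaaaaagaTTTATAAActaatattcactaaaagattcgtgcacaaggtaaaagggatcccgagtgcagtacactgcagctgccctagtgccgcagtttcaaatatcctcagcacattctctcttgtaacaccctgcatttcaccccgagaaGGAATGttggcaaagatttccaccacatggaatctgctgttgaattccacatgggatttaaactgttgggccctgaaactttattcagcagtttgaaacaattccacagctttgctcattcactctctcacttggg
Fmod: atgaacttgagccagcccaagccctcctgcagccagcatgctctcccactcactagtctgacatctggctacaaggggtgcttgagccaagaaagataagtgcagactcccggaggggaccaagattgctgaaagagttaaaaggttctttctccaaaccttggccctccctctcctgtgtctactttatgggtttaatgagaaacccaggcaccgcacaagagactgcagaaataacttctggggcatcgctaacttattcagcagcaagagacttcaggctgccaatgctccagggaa
Podn: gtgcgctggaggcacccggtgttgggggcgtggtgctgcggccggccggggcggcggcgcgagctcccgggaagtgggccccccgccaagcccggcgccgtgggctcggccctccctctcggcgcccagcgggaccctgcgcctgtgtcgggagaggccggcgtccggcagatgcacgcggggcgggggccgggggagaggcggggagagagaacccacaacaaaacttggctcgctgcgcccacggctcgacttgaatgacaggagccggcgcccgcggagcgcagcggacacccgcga
Aspn has TATAAA 207 bases before its start and the reverse match TTTATA at 178 bases. Ogn has TATAAA at 227 bases, overlapped by the reverse match at 229, and GGAATG at 86 bases. The windows of Fmod, Podn, Bgn and Prelp hold none of the 3 motifs. The first Podn start has 41 CpG, more than 96.5% of all promoters, and the other windows hold fewer: Aspn 3, Fmod 3, Ogn 4, Prelp 7, Bgn 9 and the second Podn start 7, beside a median of 7 over all promoters.

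Outside the family, Bgn lay closest over the 12 arrays to Lox, a lysyl oxidase that crosslinks collagen (RMS 0.33), and Timp2, a metalloproteinase inhibitor (0.58). Podn lay closest to Lmcd1 (0.30) and Apbb1ip (0.31), and Fmod to Tmem176b and Phxr4 (0.55 each). Aspn lay closest, after Ogn, to the transcription factor gene Osr1 (0.52) and to the fibril-associated collagen gene Col12a1 (0.59), and Ogn to Col12a1 (0.59) and Thbs2 (0.68). Lum lay closest to Dpt, a dermal matrix protein (0.69), and Medag (0.76). Prelp lay closest to Emp3 (0.65) and the fibulin gene Efemp1 (0.66). Dcn had the least close neighbours, Efemp1 (1.03) and Smpdl3a (1.12). Most of these neighbours depended on the 2 reused arrays. Over the other 10 arrays, 4 of the 16 nearest genes were the same: Lox for Bgn (RMS 0.32), Osr1 for Aspn (0.41), Efemp1 for Prelp (0.49) and Lmcd1 for Podn (0.28).

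Of 10 further genes of the family, 9 were measured and 2 passed the filter on dim genes. Omd, Kera, Epyc, Optc, Ecm2, Chad and Chadl were below the array median on all 12 arrays, with highest readings of 4.74 to 5.82. Podnl1, the podocan-like gene, passed only through the WT MEF array, where it read 6.36, and was not above the array median on the other 11. A lower mean outside MEF was therefore built into its choice. Podnl1 averaged 5.18 on the pluripotent arrays and 5.21 on the DOX arrays, against 5.97 on the MEF arrays (log2 signal), and no test is given. Nyx, known from the retina, read 8.997 to 9.25 on all 12 arrays, with a pluripotent minus MEF difference of 0.02 ± 0.10 (limma, adjusted p = 0.856).

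Genes that build the sugar chains of these proteoglycans were lower in the same comparison. Of 31 such genes tested, 22 fell and 3 rose in pluripotent cells relative to MEF, with a median of -1.11. Of all genes tested there, 29.9% were called lower and 30.1% higher, with a median of 0.03. Csgalnact1, which starts chondroitin chains, fell 9.20-fold (limma, adjusted p = 0.000402), Chst14, which sulfates dermatan, fell 7.04-fold (limma, adjusted p = 0.000288), and Chst2, a sulfotransferase of keratan sulfate, fell 5.48-fold (limma, adjusted p = 7.419e-05). The 3 that rose were B3gnt7, B3gnt2 and Chst3, of which the first is a glycosyltransferase of keratan sulfate. On the DOX arrays 11 fell and 0 rose, with a median of -0.67, among them Csgalnact1 by 5.62-fold (limma, adjusted p = 0.0447), Chsy3, a chondroitin synthase, by 4.58-fold (limma, adjusted p = 0.0112) and Chst14 by 3.90-fold (limma, adjusted p = 0.0250). Csgalnact1 was just past the threshold without the reused day 8 array (limma, adjusted p = 0.0498). Of all genes tested in DOX against MEF, 7.67% were called lower and 5.88% higher, with a median of 0.06.

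Partners of the proteoglycans on the collagen fibril fell in 20 of 21 tested in pluripotent cells, with 0 higher and a median of -3.37. Of the 25 listed, 6 are also fibroblast markers. Among all genes tested, 29.9% were called lower and 30.1% higher in pluripotent cells. On the DOX arrays the shares were 7.67% and 5.88%. Col12a1 fell 20.1-fold (limma, adjusted p = 0.00430), periostin (Postn) 18.8-fold (limma, adjusted p = 0.0130) and Col5a2, a collagen of the fibril core, 15.6-fold (limma, adjusted p = 0.000258). On the DOX arrays 5 of 21 fell, with a median of -2.54: Col5a2 by 9.83-fold, the lysyl oxidase gene Loxl1 by 7.24-fold and elastin (Eln) by 6.69-fold, and also Col11a1 and Col5a1 (limma, adjusted p from 0.00990 to 0.0381). Among receptors and ligands bound by these proteoglycans, 16 of 19 fell and 1 rose in pluripotent cells, with a median of -2.07. Tgfb3 fell 25.7-fold (limma, adjusted p = 0.00700), the decorin-binding Wnt target Ccn4 13.9-fold (limma, adjusted p = 0.000861) and the decorin receptor Egfr 8.26-fold (limma, adjusted p = 0.00105), and P2rx7 rose 2.78-fold (limma, adjusted p = 0.00743). On the DOX arrays 6 of 19 fell, with a median of -1.17, led by Tgfb3 at 12.3-fold, Ccn4 at 10.8-fold and Bmp4 at 6.29-fold (limma, adjusted p = 0.0347, 0.0206 and 0.0352).

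Proteoglycans of other kinds fell in 13 of 19 tested in pluripotent cells, and Agrn and Spock2 rose, with a median of -1.81. Among all genes tested, 29.9% were called lower in pluripotent cells and 7.67% on the DOX arrays. Cspg4 fell 13.1-fold (limma, adjusted p = 7.69e-05) and the glypicans Gpc6 and Gpc3 9.66-fold and 9.16-fold (limma, adjusted p = 0.000238 and 0.000548). On the DOX arrays 5 of 19 fell, with a median of -1.51, among them lubricin (Prg4) by 12.3-fold, Gpc3 by 9.15-fold and the syndecan Sdc3 by 5.38-fold (limma, adjusted p = 0.0199, 0.0253 and 0.0296). The MEF readings of Prg4 were uneven, 7.47 in WT, 9.69 in flox/- and 10.36 in -/- cells. In WT cells Prg4 read 5.29, 5.01 and 6.95 on days 4, 8 and 11, the last of these near WT MEF. Acan was counted too, and its difference is the list median. It passed the filter on dim genes only through the -/- MEF array, where it read 7.59. A lower mean outside MEF was therefore built into its choice, also in the counts without the reused arrays. These lists share the MEF arrays and were lower together with the 19 fibroblast markers, all 19 of which fell in pluripotent cells (median -3.53) and 5 of which fell on the DOX arrays (median -2.86).

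The list counts were also taken without the 2 reused arrays. In pluripotent cells against MEF 29.6% of all genes were then called lower and 29.9% higher. The sugar chain genes had 22 lower and 2 higher of 31, the fibril partners 20 of 21 lower, the receptors and ligands 16 lower and 1 higher of 19, the other proteoglycans 14 lower and 2 higher of 19, and all 19 fibroblast markers were lower. On the DOX arrays against MEF 11.8% of all genes were then called lower and 12.5% higher, with 13 of 31 sugar chain genes, 7 of 21 fibril partners, 9 of 19 receptors and ligands, 6 of 19 other proteoglycans and 6 of 19 fibroblast markers lower and none higher. The 3 leading genes of each of the first 4 lists were again called lower in both comparisons, and of their folds that of Tgfb3 in pluripotent cells moved by over 1.5 times, to 49.2-fold lower (limma, adjusted p = 0.000718).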

How the data were processed

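RNA was extracted with TRIzol and labelled with biotin through an in-vitro-transcription kit, per the labels' protocols. The values deposited by the authors are log2 signals of 35512 probe sets, from 3.11 to 13.99. The summary and normalization methods are not given in the sources used here. As array medians differed by 0.122, quantile normalization was applied. A single gene symbol was given for 21789 probe sets, giving 19938 genes, each taken by its probe set with the highest mean. Genes above the array median on at least 1 array were kept. Differences were tested by limma (version 3.58.1, under R 4.3.3, tables read by the package data.table, version 1.17.8), two-sided, with Benjamini-Hochberg adjustment over the 13044 genes kept, and called at an adjusted p under 0.05. Each state comparison was fitted on the arrays of its 2 states. flox/- minus WT had stage as a block, and -/- minus WT had state and genotype as terms. The limma script was tested on simulated data. Single arrays were compared without a test, with 2-fold as the size that counts. Python 3.11.15, pandas 2.3.3 and matplotlib 3.10.9 handled promoters and figures.

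The 8 genes, the other gene lists and the tests were chosen with earlier results of these data known. Genes named from a list are the 3 called with the largest change in each comparison of states with MEF, and for each of the 8 genes the 2 nearest profiles, while others singled out were chosen after their values were seen. Promoter windows came from the RefSeq table. Arrays have no sequencing depth, and their number limits the precision. Alternatives were other scaling, filters, probe set rules, variance priors and fits, and leaving out arrays.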

Additional observations from a re-analysis of the deposited data

Results flagged for a closer look

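Prelp lay on opposite sides of MEF in the 2 genotypes under doxycycline. Both flox/- DOX arrays were below flox/- MEF and all 3 WT DOX arrays were above WT MEF. On days 4 and 8 Prelp differed from MEF by -2.97 and -6.06 in flox/- and by 0.61 and 1.72 in WT (log2). The mean log2 difference from MEF differed by -5.64 between them, flox/- minus WT, with day 11 in the WT mean only. Without the reused WT day 8 array it differed by -5.35. The difference itself was not tested, and the MEF arrays it is set against read 11.72 in flox/- and 10.29 in WT.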

How the results depend on the processing

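Of the values of the 8 genes under the alternatives, 536 kept their direction and side of the threshold, 17 lost the call, 5 gained it and 10 changed sign. Arrays were matched by stage, as a block in flox/- minus WT, and by no replicate number, since the labels carry none.

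Leaving out 1 array at a time gave 5 to 8 of the 8 genes and 6449 to 7762 of all genes called for pluripotent against MEF, 0 to 3 and 150 to 3165 for DOX against MEF, 0 to 1 and 0 to 1315 for DOX against pluripotent, 0 and 0 to 2 for -/- against WT, and 0 and 0 for flox/- against WT (each stage in turn). The 5 came without flox/- MEF and the 1315 without flox/- day 8. For DOX against MEF, 1768 genes were called in all, 3165 without the reused WT day 8 array, 150, 402 and 414 without flox/-, -/- and WT MEF, 659 without WT day 11, 688 without flox/- day 4, 3561 and 3 of the 8 genes (Fmod, Aspn and Podn) with one fit of all 3 states, and 508 with genotype as a term. For DOX against pluripotent, 0 genes were called with a trended variance prior, 0 without the reused arrays, 0 with genotype as a term and 19 with one fit. In pluripotent against MEF, Dcn was not called with no filter (adjusted p = 0.0614), one fit (0.0631) or genotype as a term (0.0524), Bgn with no filter (0.0529) and Prelp with one fit (0.0553), all by limma. At 1.5-fold, 4 genes were lower on WT day 4, with Ogn only just so at 1.53-fold. The share of all genes at 1.5-fold is not given, so this count has no background to be read against. Against WT MEF alone, the median kept in WT iPSC was 19.0%.

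The sign changes were all in genotype differences that had not passed. Without the MEF stage, Podn was -0.17 for flox/- minus WT, in a range of -0.17 to 0.34 over the stages left out. For -/- minus WT, Dcn was -0.66 without WT ESC (also without both reused arrays), -0.45 without WT MEF and -0.78 without -/- ESC. Prelp was 0.16 without WT ESC (also without both reused arrays), Podn -0.25 without WT MEF and -0.13 without -/- ESC, and Lum 0.94 without WT iPSC. Over all arrays left out in turn, these ran up to 1.70 for Dcn and 0.20 for Podn, and down to -1.33 for Lum and -1.70 for Prelp. The cause was not tested. The dim end of the arrays limits the folds of the genes where they read below the array median. Podn read no lower than 6.37, just above that median, and whether this is a floor of its own probe set was not tested.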
